A study of Mus musculus with 3 samples.

Results

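The Notch pathway is described here through 10 genes: the receptor *Notch1*, the ligand genes *Dll1*, *Dll3*, *Dll4* and *Jag1*, the nuclear partner *Rbpj*, and the effector genes *Hes1*, *Hes2*, *Hes5* and *Hey1*. They were chosen by name as known pathway components, and all 10 were listed in the raw count matrices of 18823 genes (explants), 17851 genes (P0) and 17849 genes (P14). The 3 libraries were MULTI-seq libraries, in which each sample was marked with a lipid-anchored barcode oligonucleotide before pooling. The explant library held wild type CD1 retina dissected at E14 and grown for 6 days on membranes with 0, 5, 50 or 500 nM of a small-molecule agonist of the somatostatin receptor Sstr2, with 2 samples at each dose. The P0 and P14 libraries held untreated retina of a mixed C57BL/6 and CD1 background, each with 1 *Sstr2* +/+ sample, 2 *Sstr2* +/- samples and 2 *Sstr2* -/- samples. The *Sstr2* allele was a germline one carried by every cell of the mouse. The sources used here do not say how many retinas a sample held, so the words explant and retina each stand for 1 barcoded sample, and p-values measure the spread between these samples.

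Notch receptors are bound by Delta and Jagged ligands on a neighbouring cell. Cleavage then frees the intracellular part of the receptor, which enters the nucleus, binds RBPJ and switches on genes such as *Hes1* and *Hes5*, whose products repress proneural genes. In the developing retina the pathway is known for holding progenitors back from differentiation while cells that express Delta ligands become neurons, and later for its part in Müller glia.

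Explants held 1281682 to 4237324 UMIs (unique molecular identifiers, one for each captured transcript), P0 retinas 8822880 to 10793649 and P14 retinas 1266730 to 5886669. Levels are given as CPM, the UMIs of a gene per 1000000 UMIs summed over the cells of 1 cell type in 1 sample. No member's level was compared with that of another gene. Sums of marker lists with unequal numbers of genes were set side by side, only as a rough check of labels. The authors' cell type labels were used, and primary progenitors are the cells labelled simply as progenitors. Explant labels each had their own marker list as the highest, although primary progenitors had a median of 1033 CPM of theirs beside 992 CPM of Müller glia markers and neurogenic progenitors 2054 CPM beside 1671 CPM of photoreceptor markers. At P0 these 2 classes held more of the other list, with 897 CPM of primary progenitor against 940 CPM of Müller glia markers and 1033 CPM of neurogenic against 1710 CPM of photoreceptor markers. At P14 cells labelled amacrine held horizontal cell markers (a median of 1672 CPM for *Onecut1*, *Lhx1* and *Calb1* together) beside amacrine markers (1801 CPM), and only 3 retinas had 10 or more such cells. At P14 the endothelial list summed to a median of 904 CPM in Müller glia, of which *Kdr* gave 868 CPM, while *Cdh5* and *Cldn5*, the latter reaching 108 CPM in 1 retina, had medians of 0. P14 classes also held markers of one another. The Müller glia list summed to a median of 24450 CPM in Müller glia and 300 CPM in rods. The rod list summed to 32961 CPM in rods, 11689 CPM in cones, 3348 CPM in bipolar cells and 2226 CPM in Müller glia. The level of a member in 1 class may thus hold transcripts of another, which was not tested. Cells with the same barcode sequence in a pair of libraries numbered 9 or fewer.

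The sequence before the start of *Hes5* is shown because its level differed with dose below, in a call that depended on the test. Its promoter is also where the receptor's partner RBPJ is known to act. *Hes1*, *Hes2* and *Hey1* had no promoter entry, so *Hes5* was the only effector that could be shown. The 250 bases upstream of the RefSeq start lie at chr4:154960673-154960922 on the plus strand (GRCm38.p6), and capitals mark TGGGAA, the core recognised by RBPJ, or its reverse complement TTCCCA.

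Hes5: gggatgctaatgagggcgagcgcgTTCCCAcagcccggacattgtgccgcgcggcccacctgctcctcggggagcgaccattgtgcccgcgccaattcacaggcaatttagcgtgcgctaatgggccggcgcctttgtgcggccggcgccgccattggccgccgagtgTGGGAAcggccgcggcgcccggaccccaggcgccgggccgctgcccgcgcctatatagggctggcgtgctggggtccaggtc

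This window held 2 copies of the core, 1 on each strand. The copy nearer the start began 82 bases before it, the other lay 226 to 221 bases before it, and both were preceded by G, giving the longer form GTGGGAA on their own strand. For comparison, 21.6% of 32851 RefSeq promoter windows of the same 250 bases held TGGGAA on either strand and 5.42% held GTGGGAA. Of the 7 members with an entry in the promoter table, *Hes5* and *Rbpj* held the core, and *Notch1*, *Dll1*, *Dll3*, *Dll4* and *Jag1* did not have these letters in the window. Windows were taken before RefSeq starts. Those of *Notch1*, *Dll3* and *Rbpj*, and 1 of those of *Dll1*, lie inside the gene spans given below, and that of *Jag1* lies partly inside. *Rbpj* and *Dll1* each had more than 1 window. The window of the ligand gene *Dll4*, at chr2:119325534-119325783 on the plus strand, is shown for contrast. It is in lower case throughout because it lacks the core.

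Dll4: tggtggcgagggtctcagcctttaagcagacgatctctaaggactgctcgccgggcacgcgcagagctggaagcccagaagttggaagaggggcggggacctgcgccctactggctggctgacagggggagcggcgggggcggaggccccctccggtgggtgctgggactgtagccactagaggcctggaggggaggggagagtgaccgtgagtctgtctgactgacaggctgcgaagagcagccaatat

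The N box CACNAG, a sequence that Hes proteins are known to bind, was found once in the windows of *Notch1* and *Dll4* and in 36.7% of all windows. These matches describe letters only.

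The genes lie on 7 chromosomes of GRCm38. *Notch1* is at chr2:26457903-26516663 (minus strand), *Dll4* at chr2:119325784-119335962 (plus) and *Jag1* at chr2:137081456-137116644 (minus). *Dll3* is at chr7:28293553-28302238 (minus), *Dll1* at chr17:15367354-15376872 (minus) and *Rbpj* at chr5:53466152-53657362 (plus). Of the effectors, *Hes1* is at chr16:30064384-30067796 (plus), *Hes5* at chr4:154960923-154962371 (plus), *Hes2* at chr4:152158867-152162469 (plus) and *Hey1* at chr3:8663359-8667256 (minus).

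**Figure D1:**
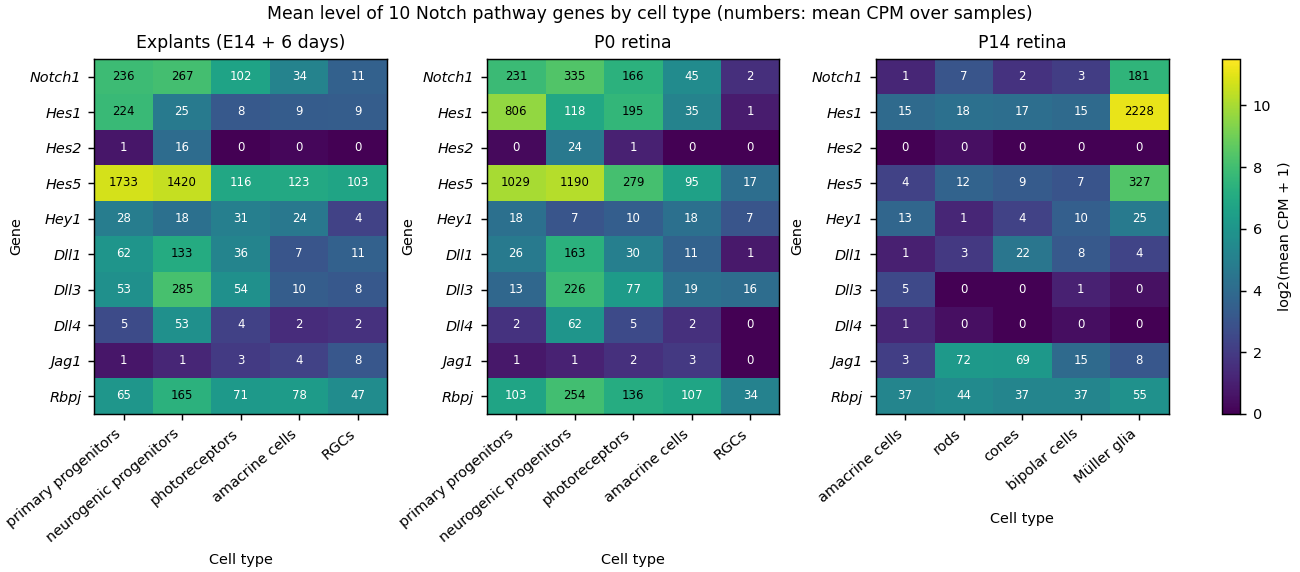
Mean level of each of the 10 genes (rows) in each labelled cell type (columns) of the explants (8 samples), P0 retinas (5) and P14 retinas (5), as CPM printed in the cell and as log2(mean CPM + 1) by colour. *Hes5*, *Notch1* and the Delta genes are highest in the progenitor columns, while at P14 *Hes1* stands at 2228 CPM in Müller glia and *Jag1* at 72 and 69 CPM in rods and cones.

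*Notch1*, which encodes the receptor, was highest in the progenitor classes and lower in each class of neuron. In explants it had a median of 240 CPM in primary progenitors (range 199 to 264) and 257 CPM in neurogenic progenitors (207 to 363), so these ranges overlapped. At P0 the 5 retinas had 214 to 245 CPM in primary progenitors and 286 to 365 CPM in neurogenic progenitors, with no overlap, and the neurogenic value was the higher in 5 of 5 retinas. P0 photoreceptors had 166 ± 14.0 CPM (SD, n = 5), amacrine cells 45.3 ± 7.97 CPM and retinal ganglion cells (RGCs) 1.97 ± 2.30 CPM. By P14 the receptor was almost limited to Müller glia, at 181 ± 22.6 CPM against 7.23 ± 2.21 CPM in rods, the next highest class.

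*Rbpj*, the DNA-binding partner of the cleaved receptor, was detected in every class. Neurogenic progenitors were highest, with 165 ± 18.0 CPM in explants (n = 8) and 254 ± 22.5 CPM at P0 (n = 5), and no other class overlapped them. Primary progenitors had 65.5 ± 7.49 CPM in explants, and their range overlapped those of photoreceptors and amacrine cells. At P14 the class means ran from 36.6 to 55.5 CPM and their order did not hold in all retinas. Müller glia came first at P14 by summed counts but not by the mean over cells, where amacrine cells did.

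Among the ligands, the Delta genes marked neurogenic progenitors. *Dll1*, which encodes an activating ligand, had a median of 139 CPM in explant neurogenic progenitors (range 86.6 to 168) and 62.4 CPM in primary progenitors (45.1 to 82.3). At P0 the neurogenic values were 173 CPM at the wild type genotype, 174 and 173 CPM in heterozygous retinas and 166 and 129 CPM in retinas labelled knockout, and primary progenitors had 21.5 to 31.5 CPM. *Dll3*, a divergent family member that is not known to activate receptors on neighbouring cells, reached 285 ± 50.7 CPM in explant neurogenic progenitors and 226 ± 23.7 CPM at P0. At P0 photoreceptors came next, with 77.3 ± 12.1 CPM. Primary progenitors had the lowest mean, 13.4 ± 0.734 CPM, in a range that overlapped that of RGCs. In explants photoreceptors had 54.3 ± 13.0 CPM and primary progenitors a mean of 53.0 CPM, which overlapped. *Dll4* was found at 53.2 ± 18.9 CPM in explant neurogenic progenitors and 62.4 ± 9.40 CPM at P0. Every other class had a mean under 6 CPM of *Dll4*, and its neurogenic mean at P0 was 12.3 times that of photoreceptors.

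All 3 Delta genes had class means under 9 CPM at P14, apart from *Dll1* in cones (21.9 ± 12.7 CPM, 30 UMIs in 115 cells). *Jag1*, the Jagged ligand, ran the other way in age. Its class means were under 8 CPM in explants and under 3 CPM at P0, whereas P14 rods had 75.7 CPM at the wild type genotype, 68.9 and 73.4 CPM in heterozygous retinas and 70.8 and 70.6 CPM in retinas labelled knockout. P14 cones had 45.2 to 101 CPM, which overlapped the rods, and bipolar cells 14.8 ± 7.50 CPM, which did not overlap either. Müller glia, the class with most *Notch1* at that age, had 7.63 ± 3.04 CPM of *Jag1*. The explants differ from the retinas in strain and culture, and the P14 retinas differ from the other samples in age. Each set of samples was also a library of its own. Differences between libraries were therefore not tested, and these factors cannot be told apart from the library.

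The effectors *Hes1* and *Hes5* divided the progenitors differently. *Hes1* belonged to primary progenitors, with a median of 217 CPM in explants (range 165 to 272) against 25.4 CPM in neurogenic progenitors (5.51 to 48.1). The P0 primary values were 891 CPM at the wild type genotype, 778 and 872 CPM in heterozygous retinas and 727 and 764 CPM in retinas labelled knockout. P0 neurogenic progenitors had 70.0 to 159 CPM, and the ranges did not overlap in either library. *Hes5* was at a median of 1619 CPM in explant primary progenitors (1210 to 2166) and 1421 CPM in neurogenic progenitors (923 to 1889). At P0 it was at 845 to 1188 CPM and 995 to 1482 CPM in these classes, so its ranges overlapped in both libraries and the order changed from sample to sample.

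**Figure D2:**
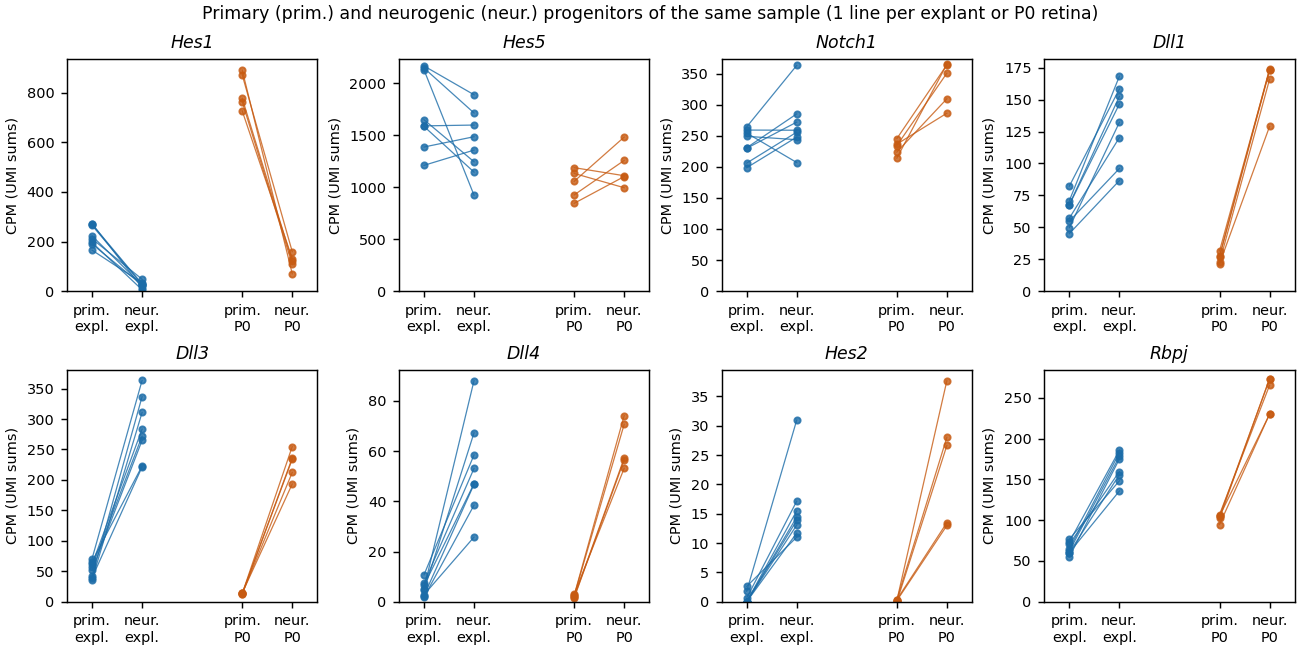
CPM of 8 of the genes in primary (prim.) and neurogenic (neur.) progenitors, where each line joins both classes of 1 explant (blue, 8) or 1 P0 retina (orange, 5). All lines fall for *Hes1* and rise for *Dll1*, *Dll3*, *Dll4*, *Hes2* and *Rbpj*, whereas those of *Hes5* cross.

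In P0 neurons both effectors depended on which cells were counted. Photoreceptors had 195 ± 64.4 CPM of *Hes1* and 279 ± 67.4 CPM of *Hes5* with all cells, but 27.9 ± 20.5 and 64.3 ± 30.9 CPM once the cells that Scrublet marks as likely doublets (8.82% of P0 cells) were left out. *Hes1* in P0 neurogenic progenitors went from 118 ± 32.8 to 58.1 ± 20.6 CPM in the same way. P0 RGCs had 3 *Hes1* UMIs in 85 cells.

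At P14 Müller glia had 2228 ± 331 CPM of *Hes1*, in the range 1880 to 2702 CPM, and the mean was 124 times that of rods, which had 18.0 ± 7.94 CPM. Müller glia markers had a median of 300 CPM in rods, and whether *Hes1* UMIs in rods came from glia was not tested. *Hes5* was at 327 ± 169 CPM in Müller glia and at 11.6 ± 3.27 CPM in rods. Over whole libraries *Hes1* was at 54.0 to 117 CPM in explants, 409 to 520 CPM at P0 and 280 to 546 CPM at P14, and *Hes5* at 641 to 1077, 638 to 786 and 23.7 to 126 CPM. Explants were thus the samples with least *Hes1*, again without a test.

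*Hes2*, a lesser known family member, was found almost only in neurogenic progenitors, at 16.0 ± 6.38 CPM in explants and 23.8 ± 10.5 CPM at P0, which is 49 and 126 UMIs in all. P0 primary progenitors gave 6 *Hes2* UMIs in 2797 cells. *Hey1*, a target best known from blood vessels, was low throughout. It was at 3.86 to 30.6 CPM in the explant classes, 7.15 to 18.1 CPM at P0 and 25.1 ± 8.26 CPM in P14 Müller glia, and most neighbours in its order overlapped.

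Among 57 other pathway genes listed, *Id3*, *Id1* and *Nrarp* were at least 4 times as high in 1 class as in every other, at 50 CPM or more. The share of all genes that meet this rule is not given here, so these levels describe single genes and not the list. *Id3*, an inhibitor of helix-loop-helix factors, had 441 ± 58.0 CPM in explant and 619 ± 95.3 CPM in P0 primary progenitors. P14 Müller glia had 1663 ± 201 CPM of *Id3*, 978 ± 277 CPM of its relative *Id1* and 73.6 ± 12.5 CPM of *Nrarp*, a feedback inhibitor of the pathway.

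Genes with the most similar profile were found over the 25 P0 sums of 5 classes in 5 retinas, among 8620 genes, by Pearson correlation of log2(CPM + 1), as a description. These sums share their libraries and retinas. Among the closest to *Notch1* was *Zfp219* (r = 0.981). The closest to *Hes1* were *Ctdspl2* (0.982) and *Ccnd1* (0.980), the latter encoding cyclin D1, and to *Hes5* they were *Grb10* (0.977) and *Myb* (0.969). *Dll1* was closest to *Hes6* (0.970) and *Polr2k* (0.964), *Dll3* to *Gadd45gip1* (0.908) and *Jam2* (0.892), and *Dll4* to *Mybl1* (0.946) and *Susd6* (0.937). *Hes2* was closest to *Dll4* itself (0.918) and to *Lamtor3* (0.881), and *Rbpj* to *Fzd2* (0.962) and *Rgs16* (0.959).

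Whether ligand and effector genes were found in the same cells was asked by splitting progenitors by a *Dll1* UMI, after thinning each cell to 1500 UMIs so that deep cells did not enter both groups together. In explant neurogenic progenitors 73.6% ± 8.43 of *Dll1*-positive cells held a *Hes5* UMI against 46.8% ± 6.80 of negative ones (SD over 8 explants). The difference of 26.8 percentage points had the same sign in 8 of 8 explants (exact two-sided sign-flip test, p = 0.00781, adjusted p = 0.0703 over 9 genes), and so missed the threshold of 0.05 after adjustment. That p is the smallest 8 samples can give. At P0 the shares were 68.5% ± 8.25 and 50.5% ± 3.18, higher in 5 of 5 retinas, with the smallest p that the exact test can give with 5, which stays above 0.05 (adjusted p = 0.281). Without thinning the explant shares were 79.3% and 65.7% and the P0 shares 81.1% and 66.1%. With thinning to 3000 UMIs the differences were smaller, at 16.0 percentage points in explants (76.0% of positive cells, higher in 6 of 8, exact test, adjusted p = 0.141) and 8.69 at P0 (69.2% against 60.5%, higher in 5 of 5, adjusted p = 0.562). Cells with fewer than 3000 UMIs were left out of that setting, so the sets of cells can differ. The groups at 1500 UMIs were small, with 120 positive cells in explants (3 to 28 each) and 134 at P0.

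In primary progenitors the *Hes5* shares were 74.9% and 71.2% in explants and 65.6% and 61.4% at P0, differences of 3.70 and 4.12 points that were positive in 5 of 8 and 3 of 5 samples. The *Dll3* shares of *Dll1*-positive and negative neurogenic cells at P0 were 21.7% and 30.6%, lower in 5 of 5 retinas (exact test, adjusted p = 0.281), but 44.9% and 48.1% with thinning to 3000 UMIs, where 2 retinas were higher and 3 lower. With thinning to 3000 UMIs, 3 tests in explant primary progenitors passed: *Hes1* at 31.9% against 44.1%, *Hey1* at 4.13% against 8.92% and *Dll3* at 20.7% against 9.59%, the difference having the same sign in 8, 7 and 7 of 8 explants (exact test, adjusted p = 0.0469 for each). Only 9 members were split in this way. What share of all genes would pass, or differ as *Hes5* did, is therefore not known. None of the 36 tests passed at the thinning to 1500 UMIs. Those at P0 could not pass with 5 retinas. In explants a gene could not pass alone after adjustment, so this count does not show that differences are absent.

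**Figure D3:**
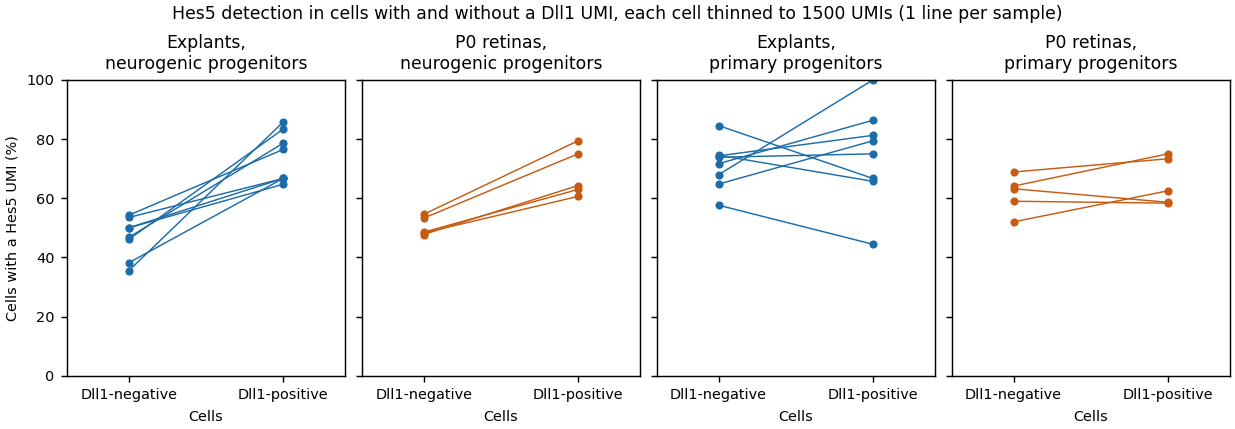
Percentage of cells with a *Hes5* UMI among cells without (left) and with (right) a *Dll1* UMI, for neurogenic and primary progenitors of explants (blue) and P0 retinas (orange), each line 1 sample and each cell thinned to 1500 UMIs. In neurogenic progenitors all 8 explant lines and all 5 P0 lines rise.

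The explants asked whether Sstr2 activation changes progenitors. *Hes5* was lower at 500 nM than at 0 nM in primary progenitors, by 0.59 ± 0.12 on the log2 scale (SE; edgeR adjusted p = 0.00496). Its level was 2166 and 2147 CPM without agonist, 1649 and 2129 CPM with 5 nM, 1210 and 1590 CPM with 50 nM, and 1585 and 1387 CPM with 500 nM. The 0 nM explants thus lay above all the others, 1 explant at 5 nM came within 20 CPM of them, and the 50 and 500 nM explants overlapped. Over all doses *Hes5* fell by 0.24 ± 0.04 on the log2 scale per log10 unit of dose + 1 nM (edgeR adjusted p = 0.00132). In these tests 0.317% and 0.528% of all genes passed, while 7 members were tested in each and the other 6 did not pass. The members' median log2 change at 500 nM was -0.04 against 0.01 for all genes.

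The calls depended on the test. At 500 nM a DESeq2 test gave the same size of change with adjusted p = 0.362 and limma on SCT values gave -0.54 with adjusted p = 0.807, and for the dose slope they gave -0.24 (adjusted p = 0.0785) and -0.23 (adjusted p = 0.757). The *Hes5* call at 500 nM was lost when either 0 nM explant was left out (adjusted p = 0.218 and 0.240). Nearly all cells of both 500 nM explants (98.3% and 99.3%) and of 1 explant at 5 nM held an *Xist* UMI, against 57.7 to 62.4% elsewhere. That 5 nM explant (98.7%) was the one with 1649 CPM of *Hes5*, and the one with 2129 CPM had 62.4%. The 50 nM explants, with 1210 and 1590 CPM, had 57.7% and 59.0%. The paper reads *Xist* differences between samples as likely due to the animals' sexes, so the 0 and 500 nM explants may also differ in sex. Samples with 57.7 to 62.4% may hold cells of both sexes, and so of more than 1 animal, which was not tested. With *Xist*-positive cells only, the *Hes5* difference at 500 nM was -0.59 (edgeR adjusted p = 0.0170). The summed level of 4 primary progenitor markers (*Fgf15*, *Sfrp2*, *Lhx2* and *Sox2*) was 1038 and 1075 CPM without agonist, 1099 and 1040 CPM with 500 nM, and none of the 4 passed.

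**Figure D4:**
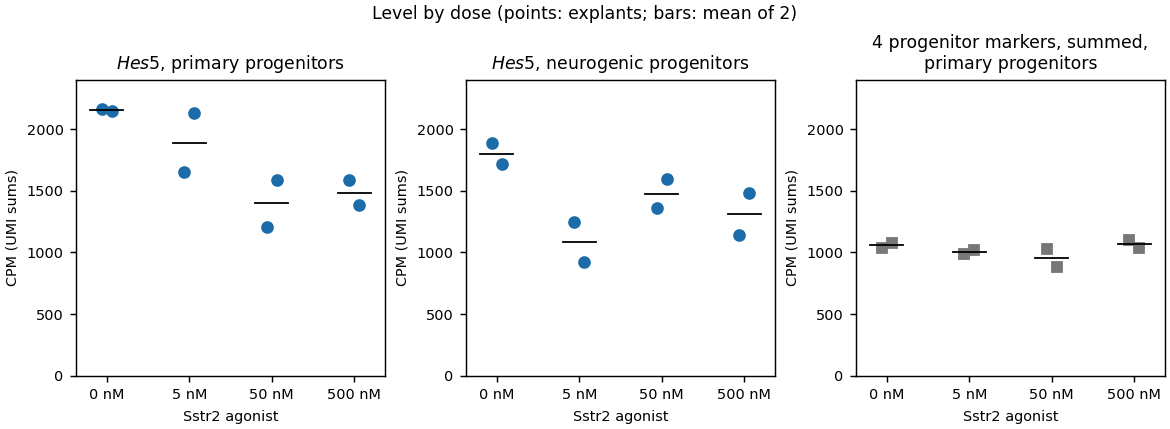
CPM of *Hes5* in primary (left) and neurogenic progenitors (middle), and of 4 progenitor markers summed in primary progenitors (right), by agonist dose. Points are explants and bars the mean of 2; *Hes5* at 0 nM sits at 2147 and 2166 CPM on the left, above the 1387 and 1585 CPM at 500 nM, while the marker sums stay between 886 and 1099 CPM.

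In neurogenic progenitors *Hes5* was at 1889 and 1714 CPM without agonist, 1245 and 923 CPM with 5 nM, 1357 and 1598 CPM with 50 nM, and 1145 and 1486 CPM with 500 nM. Both 0 nM explants were again the highest. The log2 change at 500 nM was -0.46 ± 0.11 (edgeR adjusted p = 0.114), which did not pass. With *Xist*-positive cells only it was -0.32 (edgeR adjusted p = 0.894). *Hes1* in primary progenitors did not follow, with 223 and 272 CPM without agonist, 270 and 190 CPM with 500 nM. Across cell types, 1 of 25 members' tests passed at 500 nM, where 0.195% of all genes' tests did, and 1 of 24 passed for the dose slope, where 0.182% did. None of 8 members passed a test of a different dose slope in neurogenic and primary progenitors, while 0.169% of genes did. The lowest edgeR adjusted p was 0.781, for *Hes5*, the 1 member at an unadjusted p under 0.05. The *Hes5* slope was -0.11 in neurogenic and -0.24 in primary progenitors, a difference of 0.15 ± 0.07 in the joint fit. Equal slopes are therefore not shown.

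The P0 and P14 retinas asked what loss of *Sstr2* changes. The targeted transcript itself was higher in P0 retinas labelled knockout, at 294 and 375 CPM in neurogenic progenitors, than in heterozygous (189 and 248 CPM) and wild type ones (112 CPM). UMIs are counted at transcript ends, and the sources used here do not say which part of the gene the allele lacks, so this level does not check the labels.

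Against heterozygous retinas, 3 of 32 members' tests passed at P0, where 0.109% of all genes' tests did. The first was *Hes1* in photoreceptors, which was at 273 and 250 CPM in heterozygous retinas, 125 and 145 CPM in retinas labelled knockout and 180 CPM at the wild type genotype. The wild type retina thus lay between. The change from heterozygous to labelled knockout was -0.94 ± 0.11 on the log2 scale (edgeR adjusted p = 0.00856; 0.0592% of genes passed in photoreceptors). *Hes5* moved in the same direction there, from 324 and 364 CPM to 225 and 201 CPM, and did not pass (-0.68 ± 0.11, adjusted p = 0.0593).

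*Hes1* in amacrine cells was at 65.7 and 52.6 CPM in heterozygous retinas, 16.3 and 21.4 CPM in retinas labelled knockout and 17.8 CPM at the wild type genotype (-1.61 ± 0.23, edgeR adjusted p = 0.0143; 0.0386% of genes passed). Here the heterozygous retinas stood apart and the wild type lay with those labelled knockout. Their change against the single wild type retina was 0.11 ± 0.33 in amacrine cells (adjusted p = 0.998).

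Both *Hes1* calls were lost when some cells were left out, in photoreceptors with a fold change of the same size and a larger error. In photoreceptors, the 15.2 and 14.6% of cells that Scrublet marked in retinas labelled knockout, and the 28.6 and 25.2% in heterozygous ones, held 82.6 to 99.0% of all *Hes1* UMIs. Without them *Hes1* was at 11.2 and 50.4 CPM in heterozygous retinas and 33.0 and 2.28 CPM in those labelled knockout, which overlapped (-0.93 ± 0.72, edgeR adjusted p = 0.997). In amacrine cells it was at 16.1 and 21.0 against 16.3 and 9.82 CPM (-0.53 ± 0.34, edgeR adjusted p = 0.998), and that call was also lost with all cells under the DESeq2 test (adjusted p = 0.240). Without cells that held any UMI of *Fgf15*, *Sfrp2*, *Lhx2* or *Sox2*, an alternative chosen after seeing the data, 1 to 7 *Hes1* UMIs a retina remained in photoreceptors and 2 to 10 in amacrine cells, too few to test. The sum of these 4 primary progenitor markers in photoreceptors was 364 and 261 CPM in heterozygous retinas, 235 and 224 CPM in those labelled knockout and 245 CPM at the wild type genotype, and none of the 4 was at 0. In amacrine cells it ran from 152 to 201 CPM, with the heterozygous retinas at 152 and 172 CPM.

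**Figure D5:**
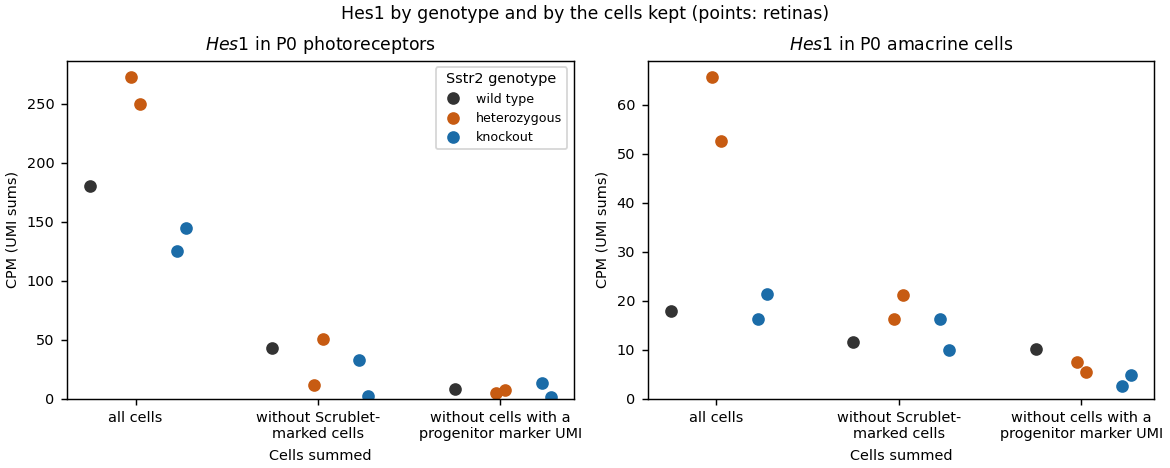
CPM of *Hes1* in P0 photoreceptors (left) and amacrine cells (right) of each retina, coloured by *Sstr2* genotype label, for all cells, without Scrublet-marked cells, and without cells holding a UMI of a primary progenitor marker. With all cells the heterozygous photoreceptors sit at 250 and 273 CPM above the others, and without the marked cells the genotypes overlap.

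The third passing test was *Hes5* in P0 RGCs, which rested on few molecules. Heterozygous retinas held 6 and 0 UMIs, retinas labelled knockout 40 and 6, and the wild type retina 1, from 12 to 26 RGCs each (2.32 ± 0.60, edgeR adjusted p = 0.0291; 0.586% of genes passed). A single retina labelled knockout gave 40 of these 53 UMIs. The call was lost without either heterozygous retina (adjusted p = 0.0612 and 0.388) and under the DESeq2 test (unadjusted p = 0.0638). Without the retina that gave 40 UMIs the gene had too few to be tested. It thus entered the test only through the retina where it was high, and this call is no support for a difference between genotypes.

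In P0 progenitors no member passed against either genotype. *Hes1* in primary progenitors was 0.28 ± 0.09 lower than in the wild type retina (log2, edgeR adjusted p = 0.993), and *Hes1* in neurogenic progenitors was at 70.0 CPM in the wild type retina, 121 and 159 CPM in heterozygous retinas and 131 and 108 CPM in those labelled knockout. Its change against the wild type retina, 0.77 ± 0.22 (edgeR adjusted p = 0.868), turned to -0.14 without doublets. *Dll1* in primary progenitors was at 27.4 and 31.5 CPM in heterozygous retinas and 22.5 and 21.5 CPM in those labelled knockout (-0.42 ± 0.13, adjusted p = 0.997). *Hes2* in neurogenic progenitors was at 13.5 CPM in the wild type retina and 28.0 and 13.0 CPM in heterozygous ones. Retinas labelled knockout had 26.7 and 37.7 CPM of *Hes2*, a log2 change of 1.24 against the wild type retina that did not pass. In the retinas with 28.0 and 37.7 CPM, 99.45% and 99.39% of cells of all classes held an *Xist* UMI. The rest of the P0 retinas had 1.91 to 2.9%, and whether sex bears on *Hes2* was not tested. Against the wild type retina 0 of 32 members' tests passed (6 at an unadjusted p under 0.05), where 0.112% of all tests did (4.78% unadjusted), and for the slope per knockout allele 0 of 31 (3 unadjusted), where 0.0154% did (4.58% unadjusted). The allele slope of *Hes1* was 0.40 ± 0.11 more positive in neurogenic than in primary progenitors (log2 per allele, edgeR adjusted p = 0.348), and the difference turned to -0.072 without the single wild type retina. No member passed this test of the difference, which 0.0541% of genes did.

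At P14 no member passed in any class. The numbers at an unadjusted p under 0.05 were 2 of 15 tests against heterozygous retinas, 1 of 16 against the wild type retina and 1 of 15 for the allele slope by edgeR, and in all genes' tests these shares were 3.40%, 2.79% and 2.99%. After adjustment 0.0808%, 0.0956% and 0.0466% of all genes' tests passed. *Hes5* in Müller glia was at 306 CPM at the wild type genotype, 319 and 121 CPM in heterozygous retinas and 294 and 592 CPM in retinas labelled knockout. The change of 0.82 ± 0.30 against heterozygous retinas had adjusted p = 1, and 1 heterozygous retina gave only 14 Müller glia. In that retina 72.7% of cells of all classes held an *Xist* UMI, against 1.8 to 4.29% in the other P14 retinas. *Hes1* in Müller glia was at 2299 and 2315 CPM in heterozygous retinas and 1880 and 2702 CPM in those labelled knockout (-0.02 ± 0.16). *Rbpj* in bipolar cells was at 25.2 and 21.5 CPM in heterozygous retinas and 50.8 and 41.0 CPM in those labelled knockout (0.94 ± 0.44, adjusted p = 0.999). P14 amacrine cells could not be compared with heterozygous retinas, which gave 4 such cells each.

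None of the other pathway genes passed in any of the 8 comparisons, in 1397 tests (lowest edgeR adjusted p = 0.375). At an unadjusted p under 0.05 were 45 of them, beside 4.55% of all genes' tests. The same held for the 92 tests of a difference between progenitor classes, of which 8 had an unadjusted p under 0.05, beside 5.52% of all genes' tests.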

How the data were processed

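The authors sequenced 10x Chromium 3' libraries, counted UMIs with Cell Ranger 3.1.0 against mm10 and used Seurat 3, per the submitters' processing notes. The deposited raw counts are whole UMIs per gene and cell, and the SCT values deposited beside them are on a natural log scale, as ln(corrected count + 1) from the authors' SCTransform step. Conditions and cell types came from the authors' cell metadata. The filters on cells are not given in the sources used here. Members, gene lists and tests were chosen with earlier results of these data known. The named genes were the 10 members, other pathway genes past the threshold or restricted to 1 class, the 2 genes most similar to each member with 20 CPM or more in some P0 class, and markers where a label was checked; a marker and a similar gene are not reported here.

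For each class with at least 10 cells in a sample, raw counts were added up over its cells and tested by edgeR 4.0.16 (quasi-likelihood, TMM, filterByExpr, Benjamini-Hochberg over all genes tested, threshold 0.05) in R 4.3.3, with all samples of a library in 1 fit. The single wild type retina adds nothing to the dispersion in comparisons of groups, though it does in the allele slope. DESeq2 1.42.0, DESeq2 size factors in edgeR, no filter, limma 3.58.1 on log2(CPM + 1) of SCT sums, *Xist*-positive cells and leaving out each sample were alternatives. Scrublet in scanpy 1.11.5 marked 91 explant, 503 P0 and 27 P14 cells, which stayed in except where stated. The tests were checked on simulated data with changes larger than most of those reported here, so that check does not bear on the smaller calls. Gene positions are from GENCODE and promoters from RefSeq, both on GRCm38, the same build as mm10. Precision is limited by UMIs per sample, and cells are not replicates.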

Additional observations from a re-analysis of the deposited data

How the results depend on the processing

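No paired analysis was possible because the cell metadata number the sample barcodes and give no replicate numbers, so the planned fit with a replicate block was not run.

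The number of members' tests past the threshold for 500 nM against 0 nM was 1; it was 0 with the DESeq2 test and with limma on SCT values, 2 without the filter on low counts, and 0 to 2 when each explant was left out, the added call being *Hes5* in neurogenic progenitors. For the dose slope it was 1, and 0 with the DESeq2 test and limma. For P0 knockout against heterozygous it was 3, 0 with limma and without doublets, 2 with the DESeq2 test, 4 without the filter, and 1 to 4 when each retina was left out. *Hes1* in photoreceptors and *Hes5* in RGCs were lost without heterozygous replicate 2, *Hes5* in amacrine cells passed without knockout replicate 2, and *Hes5* in photoreceptors passed with the DESeq2 test (adjusted p = 0.0436), without the filter and without heterozygous or knockout replicate 1 (edgeR). Against the P0 wild type it was 0, and 0 to 1 when a retina was left out (*Hes5* in RGCs without heterozygous replicate 2, *Hes1* in neurogenic progenitors without knockout replicate 2). For the P0 allele slope it was 0, 1 without the filter (*Hes5* in RGCs), and 0 to 2 when a retina was left out, the 2 being *Hes1* in photoreceptors and amacrine cells without the wild type retina. For P14 knockout against heterozygous it was 0, and 0 to 1 when a retina was left out, the call being *Hes5* in Müller glia without heterozygous replicate 1 (1.88) or knockout replicate 1 (1.28). The difference of allele slopes at P0 gave 0, 1 without the filter and 0 to 1 when a retina was left out, the member being *Hes1*. The *Dll1* split gave 0, and 3 with thinning to 3000 UMIs, where all 3 were in explants because the exact test could not pass at P0. The cause of these changes was not tested. Shares of all genes' tests that passed under each alternative are not given here, and the *Dll1* split covered members only. These counts therefore describe the members' calls alone and not how they compare with other genes. Where 1 sample of a group remained, it was assumed to vary like the other groups.

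The sign turned, in results that had not passed, for *Hes1* in P0 neurogenic progenitors against the wild type without doublets (-0.14), for *Hes5* (0.25) and *Dll3* (-0.16) in P0 photoreceptors without cells holding progenitor marker UMIs, and for the *Hes1* slope difference without the wild type retina (-0.072, in a range of -0.072 to 0.56 when each retina was left out). Leading cell types were the same in 29 of 30 pairs of gene and library by the mean over cells and in 29 of 30 without doublets. RGCs and P14 cones are rare classes and hold few UMIs of most members. UMIs of all genes ran from 12913 to 206171 a sample in explant RGCs and from 88933 to 402259 in P14 cones. P0 RGCs had 296252 to 710743, beside 181563 to 641331 in explant neurogenic progenitors. Whether depth accounts for the few UMIs of members in these classes was not tested.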

Other observations

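*Hes1* and *Hes5* were found together in part of the progenitors. With each cell thinned to 1500 UMIs, 37.2% ± 3.26 of P0 primary progenitors held UMIs of both (SD, n = 5 retinas), 23.0% ± 4.49 of *Hes1* only, 24.4% ± 4.18 of *Hes5* only and 15.4% ± 2.75 of neither. A *Hes5* UMI was found in 61.9% ± 6.28 of *Hes1*-positive and 61.3% ± 7.28 of *Hes1*-negative P0 primary progenitors. In explant primary progenitors these shares were 76.8% ± 6.29 and 69.6% ± 8.61 (n = 8 explants), with 51.3% ± 5.86 of cells holding *Hes5* only and 5.95% ± 1.55 *Hes1* only. No test was made of these shares.

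*Hes1*-positive P0 photoreceptors, 12 to 29 cells a retina after thinning, held a UMI of *Fgf15*, *Sfrp2*, *Lhx2* or *Sox2* in 37.5 to 55.0% of cells, against 10.5 to 17.2% of *Hes1*-negative ones.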
